A study of Mus musculus with 22 samples.

Results

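Transcripts of 10 genes for LIM domain proteins of the cytoskeleton were followed in mouse back skin. The genes were Pdlim1, Pdlim3, Pdlim4, Fhl1, Fhl2, Csrp1, Csrp3, Lasp1, Zyx and Pxn, out of 8252 genes that the array measures with a probe set of their own. A probe set, the array's unit of measurement, is a group of short probes for one transcript. Every probe set that the platform annotation pairs with exactly 1 of these genes was taken, which gave 16 of 12422. The genes were picked by protein family, with earlier results of these data known. Pdlim4 was included because its signal had been seen to be raised in DN-CLIM skin. The genotype difference of Pdlim4 is therefore a description with no test.

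The transgenic mice carried K14-DN-Clim, a transgene for a dominant-negative form of the CLIM cofactors, and the controls were wild-type littermates. The keratin 14 promoter directs the transgene to basal keratinocytes, whereas the RNA came from whole back skin, which also holds dermis, hair follicles, fat and a sheet of skeletal muscle. All mice were of strain CB6F1. Postnatal day 6 (P6) had 5 DN-CLIM and 5 wild-type arrays, and P14 and P23 had 3 of each genotype. Per the series' design text, P6 and P14 fall in the first growth of hair follicles and P23 in the first telogen, the resting phase. Nothing in the labels links a given array with a single mouse, so p-values measure the spread between arrays, which may be partly technical.

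A LIM domain is a zinc-binding fold that holds on to other proteins. In the nucleus the CLIM cofactors bind the LIM domains of LIM-homeodomain and LIM-only proteins. The proteins followed here use their LIM domains elsewhere, at actin filaments, at focal adhesions (where integrins tie actin to the matrix) and at the Z-discs that anchor actin in striated muscle. In skin such proteins serve keratinocyte adhesion and spreading, and several are abundant in the muscle under the dermis.

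Values are log2 of the MAS5 signal, the array software's summary of a probe set, after the authors' scaling of each array. Of the 16 probe sets, 13, for 9 genes, had a mean signal at or above the median of all probe sets (log2 7.67) and were tested. The Zyx probe set and 1 probe set each of Pdlim4 and Fhl1 were dimmer and were not tested. The array medians lay between 7.56 and 7.80, with those at P23 at or above 7.78 and those of the other ages at or below 7.74. An array's mean correlation with the others of its group ran from 0.933 to 0.972, and the lowest value was that of DN-CLIM P6 replicate 5. Signals of different probe sets are not set against each other, since probes bind with different strength.

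From P14 to P23 the genes of muscle LIM proteins rose and those of Fhl2, Csrp1 and paxillin fell, in both genotypes. In DN-CLIM skin 8 of 13 member probe sets passed an adjusted p of 0.05, against 54.3% of all 6211 tested. In wild-type skin 8 of 13 passed, against 54.2% of all, so the number of calls among the members was near that of the array as a whole. The same 8 probe sets passed in both genotypes, 4 higher and 4 lower, where 27.1% and 27.2% of all probe sets were called higher and lower in DN-CLIM skin and 27.0% and 27.1% in wild-type skin. Pdlim3 and Csrp3 passed the filter on dim probe sets through their P23 signal, and without them 6 of 11 passed in each genotype. The 8 probe sets stood for 3 genes that were higher at P23 (Pdlim3, Fhl1 and Csrp3) and 3 that were lower (Fhl2, Csrp1 and Pxn).

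**Figure D1:**
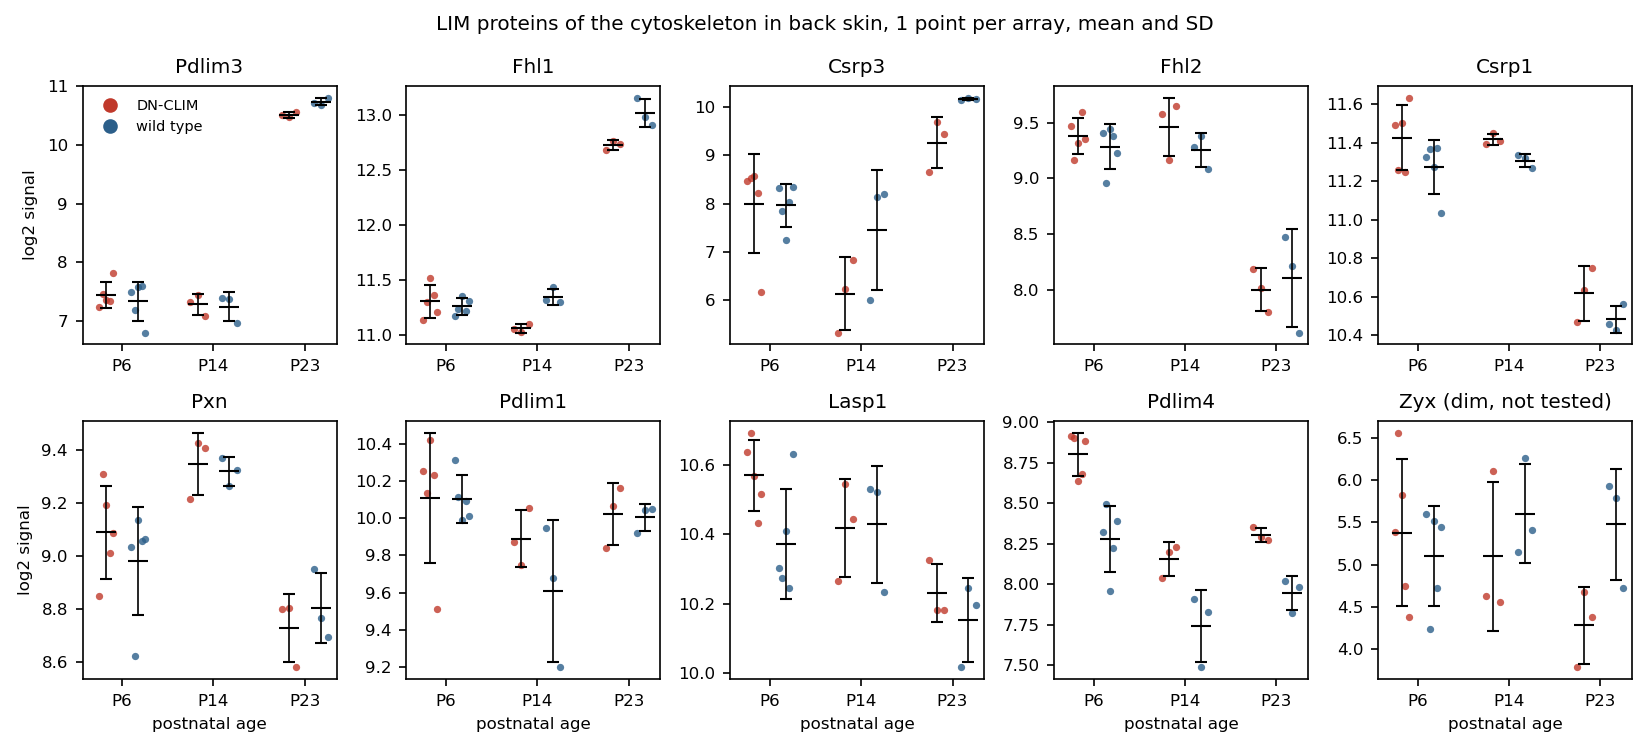
log2 signal of the 10 genes on each of the 22 arrays, with postnatal age on the x axis. The probe set with the highest mean is shown for each gene, DN-CLIM arrays are red and stand left of the blue wild-type arrays, and bars give the mean and SD. By group mean Pdlim3, Fhl1 and Csrp3 are highest at P23, Fhl2, Csrp1 and Pxn are lowest there, and Pdlim4 is higher in DN-CLIM than in wild-type arrays at each age.

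Pdlim3 encodes ALP, a PDZ and LIM protein that binds alpha-actinin at the Z-discs of muscle. In DN-CLIM skin its log2 signal ran from 7.24 to 7.81 over the 5 arrays at P6 (median 7.35), was 7.33, 7.44 and 7.09 at P14, and was 10.51, 10.47 and 10.56 at P23. In wild-type skin it ran from 6.81 to 7.61 at P6 (median 7.50), was 7.40, 7.37 and 6.96 at P14, and was 10.72, 10.69 and 10.81 at P23. The P6 and P14 arrays shared one range, and every P23 array lay far above it. Between P14 and P23 the signal rose 9.38-fold in DN-CLIM skin (log2 change 3.23, SE 0.20, adjusted p = 8.86e-12) and 11.3-fold in wild-type skin (log2 change 3.49, SE 0.20, adjusted p = 1.94e-12). By size these were rank 11 and rank 4 among the rises of all 6211 tested probe sets. The group means at P6 and P14 lay below the filter level, so the probe set was tested only because of its P23 signal, and a rise into P23 was built into its being tested. With every probe set tested and no filter, the adjusted p was 2.6e-11 in DN-CLIM skin and 5.7e-12 in wild-type skin.

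Fhl1 encodes a protein made up of LIM domains alone, abundant in skeletal muscle, where it sits at the sarcomere. At the brighter probe set of Fhl1 the DN-CLIM arrays ran from 11.13 to 11.52 at P6 (median 11.30), those of P14 read 11.06, 11.02 and 11.10, and those of P23 read 12.68, 12.77 and 12.74. The wild-type arrays ran from 11.17 to 11.36 at P6 (median 11.24), those of P14 read 11.31, 11.43 and 11.30, and those of P23 read 13.15, 12.98 and 12.91. As with Pdlim3, all P23 arrays stood above all younger ones. From P14 to P23 Fhl1 rose 3.17-fold in DN-CLIM skin (log2 change 1.67, adjusted p = 3.43e-12) and by as much in wild-type skin (log2 change 1.67, adjusted p = 3.21e-12), with an SE of 0.10 in both. The second tested probe set of Fhl1 rose by 1.93 in DN-CLIM skin and 1.92 in wild-type skin (log2, adjusted p = 3.02e-10 and 3.21e-10).

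Csrp3 encodes the muscle LIM protein of heart and slow skeletal muscle, a Z-disc protein. The 5 DN-CLIM arrays of P6 read 8.47, 8.53, 8.57, 8.21 and 6.18, those of P14 read 5.33, 6.23 and 6.84, and those of P23 read 8.66, 9.67 and 9.43. Wild-type arrays of P6 read 8.32, 7.85, 7.26, 8.03 and 8.34, those of P14 read 6.01, 8.13 and 8.20, and those of P23 read 10.15, 10.19 and 10.15. DN-CLIM P6 replicate 5 and wild-type P14 replicate 1 lay well below the other arrays of their groups. The rise between P14 and P23 was 8.71-fold in DN-CLIM skin (log2 change 3.12, SE 0.56, adjusted p = 6.98e-05) and 6.58-fold in wild-type skin (log2 change 2.72, SE 0.56, adjusted p = 0.000305). Csrp3, with both P14 means under the filter level, also passed the filter through P23, and with no filter the adjusted p was 0.00014 in DN-CLIM skin and 0.00057 in wild-type skin. On average Csrp3 was dimmest at P14 in both genotypes. In wild-type skin that rested on P14 replicate 1, since the other P14 arrays lay above the P6 mean of 7.96. Between P6 and P14 it fell in DN-CLIM skin (log2 change -1.86, SE 0.50, adjusted p = 0.00897), and in wild-type skin the value was -0.51 (adjusted p = 0.521). Without DN-CLIM P14 replicate 1 the fall was -1.46 with adjusted p = 0.066. Between P6 and P23 the rise was 1.26 in DN-CLIM skin (adjusted p = 0.0372) and 2.20 in wild-type skin (adjusted p = 0.000794). The first of these did not pass without DN-CLIM P6 replicate 5 (0.81, adjusted p = 0.1), P23 replicate 2 (1.05, 0.14) or P23 replicate 3 (1.18, 0.1). It also did not pass with quantile normalization, median centring, no filter, the replicate block or only the groups compared (adjusted p = 0.056 to 0.08).

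Skeletal muscle genes and genes of several other cell types rose over the step at which these 3 members rose. Of 22 tested genes of a skeletal muscle list, 18 rose and 3 fell between P14 and P23 in DN-CLIM skin (median log2 change 1.85), and 19 rose and 3 fell in wild-type skin (median 1.73). The array held 29 genes of this list. As in every list, a gene dim at the younger ages could pass the filter through its P23 signal, which favours rises into P23. The summed signal of the list was 147222 to 160228 at P23 and 44390 to 63080 at P14 in DN-CLIM skin, and 147870 to 185707 at P23 and 53844 to 62126 at P14 in wild-type skin. Ryr1, the calcium release channel, rose by 3.41 in DN-CLIM skin and by 3.14 in wild-type skin (log2), and Pygm, muscle glycogen phosphorylase, by 3.43 and 3.27. Of lists for other cells, 6 of 7 macrophage, 8 of 9 dermal fibroblast, 3 of 5 Schwann cell and 3 of 4 adipocyte genes rose in DN-CLIM skin, and 7, 8, 5 and 3 of them in wild-type skin. Of all tested probe sets 27.1% were called higher in DN-CLIM skin and 27.0% in wild-type skin. The hair shaft, keratinocyte stress response and erythroid lists had 0 genes called higher in either genotype. The part of the amount of muscle or of other cells in the rise of the members was not tested, and more cells of a type and more RNA per cell cannot be told apart in whole skin. Over all 22 arrays Pearson's r with the mean of the muscle list was 0.96 for Pdlim3, 0.96 for Fhl1 and 0.68 for Csrp3. Over the 16 arrays of P6 and P14 it was -0.10, -0.02 and -0.25 in the same order. Over the 10 arrays of P6 alone it was -0.07, 0.03 and 0.58, so that of Csrp3 changed sign when P6 and P14 were pooled. DN-CLIM P6 replicate 5 was the lowest P6 array in both Csrp3 (6.18) and the muscle list (9.99). By ranks (Spearman's rho) the P6 value of Csrp3 was 0.43. These are descriptions with no test. Myh8, the perinatal myosin, ran the other way with age, from 10.62 to 11.06 in DN-CLIM arrays at P6, 8.18 to 8.46 at P14 and 6.33 to 6.67 at P23.

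**Figure D2:**
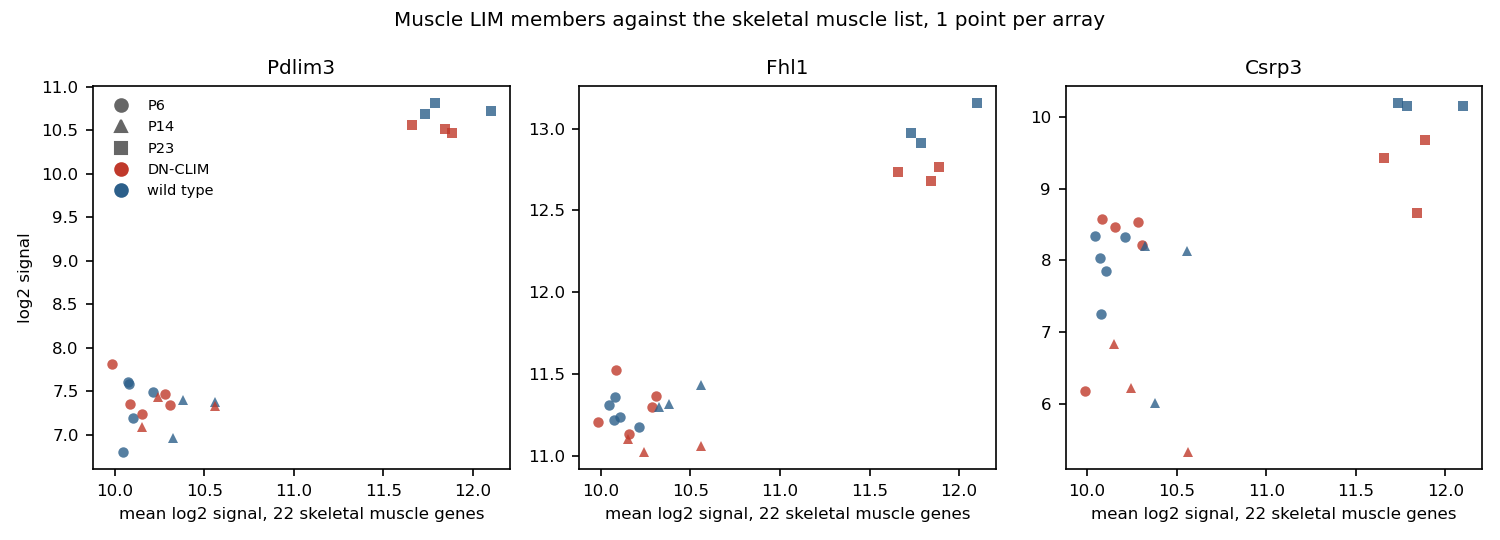
log2 signal of Pdlim3, Fhl1 and Csrp3 on each array (y axes) against the mean log2 signal of 22 skeletal muscle genes (x axis). Marker shape gives the age and colour the genotype (red DN-CLIM, blue wild type). The 6 P23 arrays sit apart at the upper right in each panel, while the 16 arrays of P6 and P14 form a group of their own in which Csrp3 spreads widely.

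The promoters of these 3 muscle genes are shown because the genes moved together with age. Each line gives the 250 bases before a transcript start (RefSeq, GRCm38.p6), 5′ to 3′ along the gene. Capitals mark CANNTG, the E-box letters read by muscle and other bHLH factors, in Csrp3 and Pdlim3. In Fhl1 they mark a CArG box, the letters read by serum response factor, SRF. The printed Fhl1 window also holds 1 CANNTG, left in lower case.
Csrp3: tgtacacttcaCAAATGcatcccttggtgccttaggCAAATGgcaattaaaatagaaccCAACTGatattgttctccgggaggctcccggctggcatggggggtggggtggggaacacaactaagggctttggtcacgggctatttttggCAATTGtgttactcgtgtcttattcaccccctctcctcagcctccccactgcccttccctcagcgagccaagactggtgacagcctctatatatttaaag
Pdlim3: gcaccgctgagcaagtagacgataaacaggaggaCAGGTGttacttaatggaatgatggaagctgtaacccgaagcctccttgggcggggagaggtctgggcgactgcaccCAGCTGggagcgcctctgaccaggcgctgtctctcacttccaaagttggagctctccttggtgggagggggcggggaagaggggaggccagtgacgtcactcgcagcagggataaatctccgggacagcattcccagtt
Fhl1: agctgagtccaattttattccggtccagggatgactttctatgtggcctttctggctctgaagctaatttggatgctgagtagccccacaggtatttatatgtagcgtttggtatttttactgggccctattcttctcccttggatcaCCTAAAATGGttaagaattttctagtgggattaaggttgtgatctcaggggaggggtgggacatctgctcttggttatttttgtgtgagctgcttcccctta
These are chr7:48848052-48848301 on the minus strand, chr8:45885237-45885486 on the plus strand and chrX:56779433-56779682 on the plus strand. Promoter sequences were at hand for 9 of the 10 genes, in 13 windows. CANNTG stood in 10 of the 13 windows, against 66.2% of 32851 mouse promoter windows of the same length. The other start of Csrp3, chr7:48843622-48843921 in the table, held 4 matches in its 250 bases before the start, as did the one printed. A CArG box stood in 3 of the 13 windows, 1 of Fhl1 and both of Fhl2, against 1.47% of all windows. The motifs were chosen with the values known, and a match is a description of the letters only.

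Fhl2, the close relative of Fhl1 that serves as an adaptor in heart and other tissues and shuttles between adhesions and the nucleus, moved the opposite way to Fhl1. The DN-CLIM arrays ran from 9.16 to 9.60 at P6 (median 9.35), those of P14 read 9.58, 9.17 and 9.65, and those of P23 read 8.19, 8.02 and 7.80. The wild-type arrays ran from 8.96 to 9.44 at P6 (median 9.38), those of P14 read 9.28, 9.38 and 9.09, and those of P23 read 8.48, 8.21 and 7.62. Every P23 array lay below every younger array. Between P14 and P23 Fhl2 fell 2.75-fold in DN-CLIM skin (log2 change -1.46, SE 0.19, adjusted p = 1.24e-06) and 2.22-fold in wild-type skin (log2 change -1.15, SE 0.19, adjusted p = 2.63e-05). The promoter is shown for comparison with that of Fhl1, with its CArG box in capitals and its 3 matches to CANNTG in lower case.
Fhl2: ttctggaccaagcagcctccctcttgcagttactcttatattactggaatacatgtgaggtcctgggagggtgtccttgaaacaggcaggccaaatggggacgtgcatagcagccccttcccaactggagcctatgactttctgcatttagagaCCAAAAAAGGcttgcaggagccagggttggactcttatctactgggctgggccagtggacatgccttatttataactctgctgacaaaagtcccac
It is chr1:43196762-43197011 on the minus strand (GRCm38.p6). A CArG box stood before a start of Fhl1, which rose at P23, and before both starts of Fhl2, which fell.

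Csrp1 encodes a cysteine-rich LIM protein that binds alpha-actinin and zyxin on actin bundles, and is known from smooth muscle and other tissues. At its brighter probe set the DN-CLIM arrays ran from 11.25 to 11.63 at P6 (median 11.49), those of P14 read 11.39, 11.45 and 11.41, and those of P23 read 10.47, 10.63 and 10.75. The wild-type arrays ran from 11.03 to 11.37 at P6 (median 11.33), those of P14 read 11.34, 11.32 and 11.27, and those of P23 read 10.46, 10.43 and 10.56. P6 and P14 overlapped, and P23 lay below both. The fall between P14 and P23 was 1.74-fold in DN-CLIM skin (log2 change -0.80, SE 0.11, adjusted p = 2.7e-06) and 1.77-fold in wild-type skin (log2 change -0.82, SE 0.11, adjusted p = 1.71e-06). The other Csrp1 probe set fell by 0.89 and 0.88 on the log2 scale (adjusted p = 2.84e-05 and 3.22e-05). Csrp1 thus fell over the step at which Csrp3 rose.

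Pxn encodes paxillin, the scaffold of focal adhesions that integrin signals act on. At P6 it ran from 8.85 to 9.31 in DN-CLIM skin and from 8.62 to 9.13 in wild-type skin. It was at 9.21, 9.43 and 9.41 at P14 and 8.80, 8.80 and 8.58 at P23 in DN-CLIM skin, and at 9.37, 9.26 and 9.33 at P14 and 8.95, 8.77 and 8.69 at P23 in wild-type skin. The P23 arrays lay below the P14 arrays in both genotypes. Between these ages Pxn fell by 0.62 in DN-CLIM skin (log2, 1.54-fold, SE 0.14, adjusted p = 0.000776) and by 0.52 in wild-type skin (1.43-fold, SE 0.14, adjusted p = 0.00373). Between P6 and P23 it fell by 0.36 in DN-CLIM skin (log2, adjusted p = 0.0186), and the value in wild-type skin was -0.18 (adjusted p = 0.244). The DN-CLIM fall did not pass without P6 replicate 2 (adjusted p = 0.05) or P23 replicate 3 (0.11).

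The tissue itself changed over the same step. All 13 tested hair shaft genes fell between P14 and P23, by a median log2 change of -6.61 in DN-CLIM skin and -6.88 in wild-type skin. Of 9 tested keratinocyte stress response genes 7 fell in DN-CLIM skin and 9 in wild-type skin (median log2 change -1.39 and -2.32). Of 3 erythroid genes 2 fell in each genotype. Of 7 smooth muscle genes 4 rose and 1 fell in each genotype. In wild-type skin the 4 were Mylk, Des, Myh11 and Acta2, smooth muscle actin, which was higher by 0.85 (log2, adjusted p = 0.000476 in limma). The gene that fell in DN-CLIM skin was Smtn (log2 change -1.74, adjusted p = 0.000314 in limma). The part of this change in the fall of Fhl2, Csrp1 and Pxn was not tested.

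**Figure D3:**
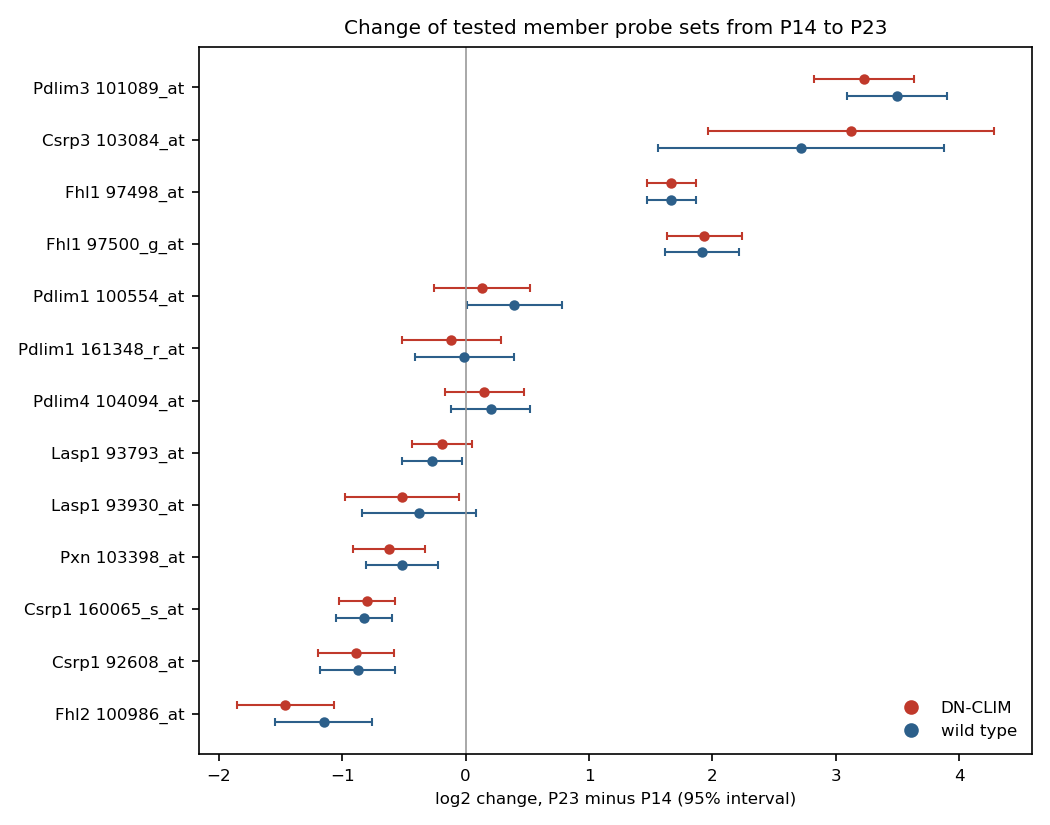
log2 change from P14 to P23 (x axis) of the 13 tested member probe sets, with 95% intervals from limma. For each probe set the red point is DN-CLIM and the blue point below it wild type. Pdlim3, Csrp3 and Fhl1 lie right of 0 and Pxn, Csrp1 and Fhl2 left of it in both genotypes, and the intervals of the 2 genotypes overlap throughout.

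Pdlim1 and Lasp1 did not pass between P14 and P23 in either genotype. Pdlim1 encodes CLP36, an alpha-actinin-binding PDZ and LIM protein of stress fibres. Between P14 and P23 its brighter probe set was at 0.13 in DN-CLIM skin and 0.40 in wild-type skin (log2, adjusted p = 0.577 and 0.079). Its 2 probe sets disagreed between P6 and P14. The brighter one was at -0.22 in DN-CLIM skin (adjusted p = 0.347) and fell by 0.49 in wild-type skin (adjusted p = 0.0397), whereas the dimmer one rose by 0.76 in DN-CLIM skin (adjusted p = 0.00271) and was at 0.48 in wild-type skin (adjusted p = 0.0507). The wild-type fall did not pass without wild-type P14 replicate 3 (-0.29, adjusted p = 0.3) or without any of 4 other arrays, wild-type P14 replicate 2 and P6 replicates 1, 2 and 4 (0.056 to 0.088), nor with median centring (0.06) or no filter (0.065). Between P6 and P23 the dimmer probe set rose by 0.64 in DN-CLIM skin (adjusted p = 0.00337) and by 0.47 in wild-type skin (adjusted p = 0.0246), while the brighter one was at -0.09 and -0.10. The wild-type rise did not pass without wild-type P6 replicate 1, P23 replicate 1 or P23 replicate 2 (adjusted p up to 0.088), nor with median centring (0.063). With its probe sets apart, no direction is given for Pdlim1.

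Lasp1 encodes an actin-binding protein with a LIM and an SH3 domain. Its brighter probe set had means of 10.57 ± 0.10 at P6 (SD, n = 5), 10.42 ± 0.14 at P14 and 10.23 ± 0.08 at P23 (SD, n = 3 each) in DN-CLIM skin. In wild-type skin the means were 10.37 ± 0.16, 10.43 ± 0.17 and 10.15 ± 0.12 with the same numbers of arrays. Between P6 and P23 it fell in DN-CLIM skin (log2 change -0.34, SE 0.10, adjusted p = 0.00906), and in wild-type skin the change was -0.22 (adjusted p = 0.0833). The other Lasp1 probe set had -0.14 and -0.21 over the same step (adjusted p = 0.564 and 0.4), and -0.51 and -0.38 between P14 and P23 (adjusted p = 0.0553 and 0.159).

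Zyx encodes zyxin, which recruits VASP to strained actin fibres. Its only probe set was dim, at percentile 21.6 of all probe sets by mean signal, and was not tested. The DN-CLIM arrays ran from 4.39 to 6.56 at P6, 4.56 to 6.11 at P14 and 3.79 to 4.68 at P23, and the wild-type arrays from 4.24 to 5.60, 5.15 to 6.26 and 4.73 to 5.93. The genotypes overlapped at P6 and P14, the DN-CLIM arrays lay below the wild-type arrays at P23, and no level or change of Zyx was read from so dim a signal.

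Pdlim4, the gene chosen for its level in DN-CLIM skin, encodes RIL, a PDZ and LIM protein that binds alpha-actinin on actin stress fibres. DN-CLIM arrays of P6 read 8.91, 8.90, 8.64, 8.68 and 8.88, those of P14 read 8.04, 8.20 and 8.23, and those of P23 read 8.35, 8.29 and 8.27. Wild-type arrays of P6 read 8.32, 8.50, 7.96, 8.22 and 8.39, those of P14 read 7.91, 7.49 and 7.83, and those of P23 read 8.02, 7.82 and 7.98. At each age every DN-CLIM array lay above every wild-type array, a pattern that 0.451%, 6.84% and 7.71% of all tested probe sets showed at P6, P14 and P23. On the log2 scale DN-CLIM exceeded wild type by 0.52 (1.44-fold) at P6, by 0.41 (1.33-fold) at P14 and by 0.36 (1.28-fold) at P23. Averaged over the ages it was 0.43, which is 1.35-fold. At P6 it was 0.56 within arrays numbered 1 to 3 and 0.47 within arrays numbered 4 and 5, a split by which earlier results had parted the P6 arrays. With any 1 array left out it ran from 0.44 to 0.58 at P6, 0.29 to 0.50 at P14 and 0.30 to 0.40 at P23. These values chose the gene and stand as a description.

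**Figure D4:**
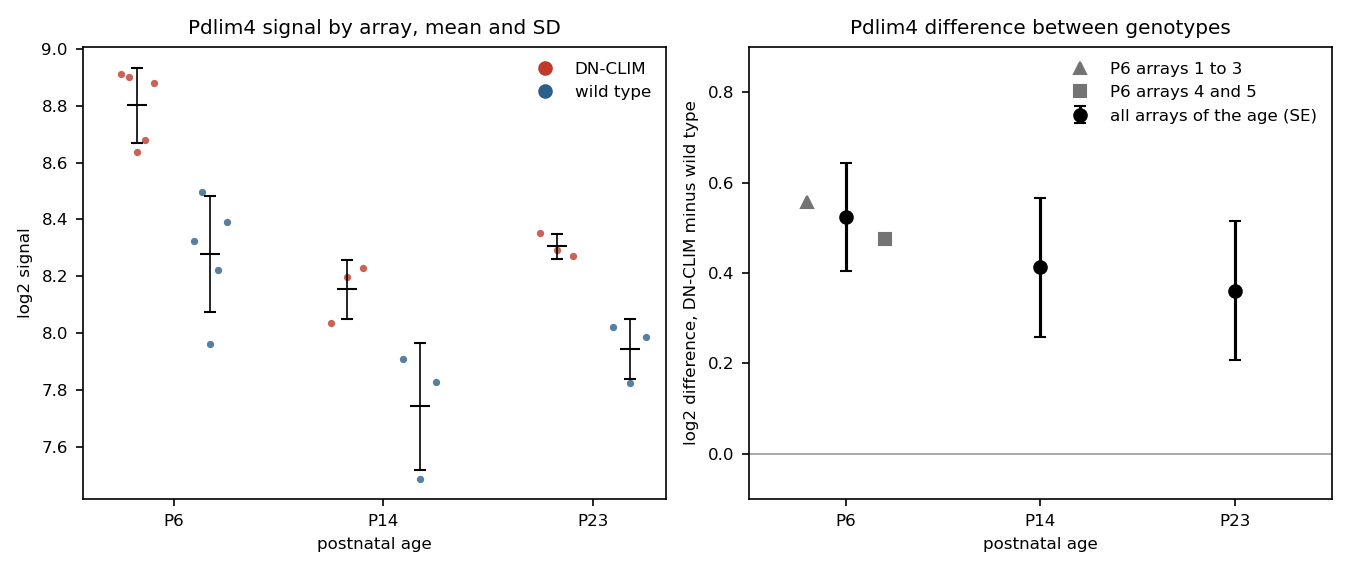
Left, log2 signal of Pdlim4 on each array by age, DN-CLIM (red) left of wild type (blue), with mean and SD. Right, the log2 difference DN-CLIM minus wild type by age with its SE, and the P6 difference within arrays 1 to 3 (triangle) and within arrays 4 and 5 (square). The DN-CLIM points lie above the wild-type points at each age, and the differences lie between 0.36 and 0.56.

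The order of the Pdlim4 group means was DN-CLIM P6 (8.80 ± 0.13), DN-CLIM P23 (8.30 ± 0.04), wild type P6 (8.28 ± 0.20), DN-CLIM P14 (8.15 ± 0.10), wild type P23 (7.94 ± 0.11) and wild type P14 (7.74 ± 0.22; SD, n = 5 at P6 and 3 otherwise). DN-CLIM P6 stood clear of the next group, and DN-CLIM P14 of wild type P23. The other neighbours in this order overlapped.

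Pdlim4 was chosen for its difference between genotypes and not for its change with age. The change with age within a genotype still uses the arrays whose levels chose the gene, so it is not independent of that choice. Between P6 and P14 Pdlim4 fell in DN-CLIM skin (log2 change -0.65, SE 0.14, adjusted p = 0.00152) and in wild-type skin (log2 change -0.54, SE 0.14, adjusted p = 0.00796), by 1.57-fold and 1.45-fold. The wild-type fall did not pass without wild-type P14 replicate 2 (adjusted p = 0.074). Between P14 and P23 the values were 0.15 in DN-CLIM skin and 0.20 in wild-type skin (adjusted p = 0.427 and 0.28). Between P6 and P23 Pdlim4 fell by 0.50 in DN-CLIM skin (adjusted p = 0.00417) and by 0.33 in wild-type skin (adjusted p = 0.0455). The last of these calls did not pass with any of 7 of the 8 wild-type arrays left out in turn, all but P6 replicate 3 (adjusted p up to 0.17), nor with no filter (0.07), the replicate block (0.071) or only the groups compared (0.1). The second Pdlim4 probe set was dim, at percentile 17.3, and did not show the genotype difference. Its P6 means were 4.32 in DN-CLIM and 5.07 in wild-type skin, its P14 means 4.40 and 5.07, and its P23 means 4.71 and 4.64.

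The Pdlim4 promoter is shown because the gene was picked for its level in DN-CLIM skin. Capitals mark GGGCGG, the GC box, which was searched on both strands.
Pdlim4: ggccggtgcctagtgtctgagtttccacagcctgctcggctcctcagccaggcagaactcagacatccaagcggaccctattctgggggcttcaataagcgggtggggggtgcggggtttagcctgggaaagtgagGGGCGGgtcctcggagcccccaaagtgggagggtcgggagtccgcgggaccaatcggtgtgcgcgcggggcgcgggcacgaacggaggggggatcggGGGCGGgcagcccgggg
It is chr11:54069018-54069267 on the minus strand (GRCm38.p6). It held 2 GC boxes and neither CANNTG nor a CArG box. GC boxes stood in 7 of the 13 windows of the members and in 32.7% of all windows.

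Between P6 and P14, while follicles were growing, 4 of 13 member probe sets passed in DN-CLIM skin (26.8% of all tested probe sets did) and 2 of 13 in wild-type skin (20.8% of all). The Pdlim4 probe set was the only one called in both, each time as lower, while Pdlim1 was called in both through different probe sets and in opposite directions. The calls of Pdlim4 are part of these counts and, as said above, are not independent of how the gene was chosen. Fhl1 was at 11.06 at P14 and 11.30 at P6 in DN-CLIM skin on average, a fall of 0.24 (log2, adjusted p = 0.0393) that did not pass without any 1 of 6 DN-CLIM arrays, P6 replicates 2 to 4 and each P14 array (adjusted p up to 0.13). It also did not pass with quantile normalization (0.086), no filter (0.056), the replicate block (0.055) or only the groups compared (0.17). In wild-type skin it was at 0.09 (adjusted p = 0.515). Between P6 and P23, 11 of 13 passed in DN-CLIM skin (54.8% of all) and 9 of 13 in wild-type skin (54.0% of all), with 9 shared and in the same direction. Without Pdlim3 and Csrp3 the counts were 9 of 11 and 7 of 11. Pdlim4, called as lower in both genotypes, is part of all these counts under the same limit. Over this step Pdlim3 was higher by 3.07 in DN-CLIM skin and 3.40 in wild-type skin, and Fhl2 lower by -1.38 and -1.18 (log2, adjusted p at most 4.42e-06). For Pdlim3 a rise into P23 was built into its being tested, as said above. With no filter its adjusted p was 6.7e-12 in DN-CLIM skin and 1.1e-12 in wild-type skin.

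Between the genotypes, 0 of the 12 tested probe sets of the other 8 genes passed in limma at P6, P14 or P23 or averaged over the ages. Of all tested probe sets 0.0322%, 0.0644%, 0.161% and 0.177% passed in these comparisons. At an unadjusted p under 0.05 there were 1, 2, 1 and 3 of the 12, against 8.18%, 6.26%, 4.57% and 7.02% of all. Fhl1 at its brighter probe set had a difference of 0.05 at P6 (95% interval -0.11 to 0.20), -0.29 at P14 (-0.49 to -0.09) and -0.29 at P23 (-0.49 to -0.09), with adjusted p = 0.898, 0.496 and 0.603. At P14 and P23 all 3 DN-CLIM arrays lay below all 3 wild-type arrays, as in 8.37% and 7.21% of all tested probe sets. Of the 12 probe sets, 2 did not overlap between the genotypes at P14 and 4 at P23. At P14 the other was the brighter Csrp1 probe set, higher in DN-CLIM skin, as in 6.84% of all. At P23 the others were the second tested Fhl1 probe set, Pdlim3 and Csrp3, each lower in DN-CLIM skin. At that age 7.71% of all were higher without overlap. These separations are descriptions with no test.

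Csrp3 was dimmer on average in DN-CLIM skin at P14 and P23. Its means were 6.13 ± 0.76 in DN-CLIM and 7.45 ± 1.24 in wild-type skin at P14, and 9.25 ± 0.53 and 10.16 ± 0.02 at P23 (SD, n = 3 each). The differences were -1.31 at P14 (95% interval -2.47 to -0.15, adjusted p = 0.72) and -0.91 at P23 (-2.07 to 0.25, adjusted p = 0.999). The P14 arrays overlapped, since wild-type replicate 1 was at 6.01, and without that array the difference was -2.03. At P6 the difference was 0.03 (-0.87 to 0.93), with 0.71 within arrays 1 to 3 and -0.99 within arrays 4 and 5. Without DN-CLIM P6 replicate 5 it was 0.49. The skeletal muscle list had 0 of 22 genes called between DN-CLIM and wild type at each age in limma, with medians of 0.14, -0.18 and -0.08 at P6, P14 and P23. Of all tested probe sets only 0.0322%, 0.0644% and 0.161% passed at these ages, so a count of 0 is near the share of the whole array.

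Csrp1 was brighter on average in DN-CLIM skin at each age without passing. The differences at its brighter probe set were 0.15, 0.11 and 0.14 at P6, P14 and P23 (adjusted p = 0.672, 0.941 and 0.999). The remaining tested probe sets, of Pdlim1, Pdlim3, Fhl2, Lasp1 and Pxn, differed by at most 0.28 on the log2 scale at any age. For Fhl2, as an example, the 95% interval of the difference was -0.21 to 0.40 at P6, -0.18 to 0.61 at P14 and -0.49 to 0.29 at P23.

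Whether the change with age differed between the genotypes was tested directly. For the steps P6 to P14, P14 to P23 and P6 to P23, 0 of the 12 probe sets passed in limma (adjusted p at least 0.683, 0.996 and 0.941), with 1, 0 and 1 at an unadjusted p under 0.05. Of all probe sets 0.0161%, 0% and 0.0161% passed, and 6.70%, 5.10% and 4.88% had an unadjusted p under 0.05. The values furthest from 0 were those of Csrp3, at -1.35 for P6 to P14 and -0.94 for P6 to P23 (DN-CLIM less wild type, log2).

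Among other LIM proteins of the cytoskeleton, 15 of 33 listed genes were tested. Between P14 and P23, 7 rose and 4 fell in DN-CLIM skin and 8 rose and 4 fell in wild-type skin, with median changes of 0.46 and 0.63 against -0.0031 and -0.0035 over all tested probe sets. Of all tested probe sets 27.1% were called higher and 27.2% lower in DN-CLIM skin. In wild-type skin these shares were 27.0% and 27.1%. Ldb3, which encodes the Z-disc PDZ and LIM protein ZASP, rose by 2.86 in DN-CLIM skin and 2.68 in wild-type skin (log2, adjusted p = 9.08e-12 and 2.47e-11). Crip1, a small cysteine-rich LIM protein, rose by 1.49 and 1.74, and Limch1, a LIM protein that activates non-muscle myosin, by 2.21 and 2.55. Limk2, the LIM kinase that phosphorylates cofilin, fell by 1.06 and 0.95. Between the genotypes 0 of the 15 passed at any age in limma, where at most 0.161% of all tested probe sets did at any age.

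Among 22 tested actin and focal adhesion partners of these proteins, 3 rose and 8 fell between P14 and P23 in DN-CLIM skin, and 6 rose and 10 fell in wild-type skin. The median changes were -0.11 and 0.07. Tpm1, a tropomyosin, fell by 1.74 in DN-CLIM skin and 1.83 in wild-type skin, after a rise of 0.91 in each between P6 and P14. Pfn1 (profilin) fell by 1.93 and 1.24, Cfl1 (cofilin) by 1.08 and 1.19, and Actg1 (gamma actin) fell in both (adjusted p = 9.89e-08 and 1.95e-08). Between the genotypes 0 of the 22 passed at any age in limma, where again at most 0.161% of all tested probe sets did.

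The genes most like each member over the 22 arrays were found by Pearson's r of log2 signal, as a description in which age makes most of the pattern. Fhl1 was most like Ldb3 (r = 0.98), Pgam2, the muscle phosphoglycerate mutase (0.98), and Tgfbi (0.98). Pdlim3 was most like Tgfbi (0.98), Nr1d2 (0.98) and Ryr1 (0.97), and Csrp3 was most like Lpar1 (0.91), Scamp3 (0.88) and Cav3, the caveolin of muscle (0.87). Pdlim4 was most like Il1f5 (0.83), Uqcc2 (0.83) and Prrc1 (0.82). With the group means removed its nearest genes were others, Mrps31 (0.80), Srp14 (0.76) and Tax1bp1 (0.73).

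Among the members, Pdlim3 and Fhl1 had r = 0.97 over the 22 arrays and Fhl2 and Csrp1 had 0.87, while Fhl1 and Csrp1 had -0.95. Over the 16 arrays of P6 and P14 alone these were -0.03, 0.16 and -0.29, so these likenesses over all arrays were not seen among the younger arrays.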

How the data were processed

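Total RNA of back skin was labelled with biotin by in vitro transcription and hybridised to 22 single-colour arrays. The authors deposited 1 intensity per probe set and array, a MAS5 signal on a linear scale per the submitters' processing notes (its version is not given in the sources used), and its 2% trimmed mean was 500.2 to 500.3 on every array. The deposited table holds 12488 probe sets, of which 66 controls were left out, and 0 arrays were identical. The platform annotation names 1 gene for 10855 probe sets.

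Signals were turned to log2 with no further normalization. Probe sets with a mean at or above the median (log2 7.67, a signal of 203.2) were tested, 6211 in all. limma 3.58.1 in R 4.3.3 fitted 1 mean per group to the 22 arrays, with eBayes trend and Benjamini-Hochberg adjustment over the 6211, and the fit was tested on simulated data. Fold changes, SEs and 95% intervals come from this fit. All members are named, with the 4 genes of smallest p per list and contrast and the 3 most correlated genes per member eligible beside them. Myh8, the motifs and the printed promoters were chosen after values were seen. The 10 members and the gene lists were chosen with earlier results of these data known. Other fits used other normalizations, no filter, an added 50, array weights, only the groups compared, a replicate block, a term within P6, and 1 array left out. Of 11 pairs of same-numbered arrays of an age, 4 had a correlation of deviations over 0.1 (median 0.056), against 3 of 32 differently numbered pairs (median -0.031). Since not every same-numbered pair was over 0.1, replicate numbers were not used as pairs in the main fit. At P23 the same-numbered pairs had 0.136, 0.056 and 0.249, and the differently numbered pairs at most 0.051. Whether same-numbered arrays belong together cannot be told from the labels, so a fit with a replicate block was run beside the main fit. That block gave each replicate number 1 term across all ages. A pairing within an age was not fitted.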

Additional observations from a re-analysis of the deposited data

Results flagged for a closer look

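Of 32 sets of 5 P6 arrays examined for a value apart from the others (16 probe sets in each genotype), 2 held one, and chance gives about 1 in 20. Csrp3 in DN-CLIM P6 replicate 5 was at 6.18, against 8.21 to 8.57 in the other 4 arrays of the group. In that array the skeletal muscle list had a mean of 9.99, the lowest of the group, and a summed signal of 54782, the second highest of the group. Pxn in wild-type P6 replicate 2 was at 8.62, against 9.03 to 9.13 in the other 4 arrays.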

How the results depend on the processing

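Of 624 runs of the 42 called age changes under the other settings, 581 kept direction and call, 43 kept the direction but not the call, and 0 changed direction. All 16 changes called between P14 and P23 kept their call in every setting run. The number of member probe sets called between P6 and P14 in wild-type skin, 2 as reported, was 4 with quantile normalization, 4 with array weights, 1 with no filter, and 0 (without P14 replicate 2) to 4 (without P6 replicate 3) with 1 array left out. In DN-CLIM skin, 4 as reported, it was 2 (without P14 replicate 1) to 6 (without P6 replicate 5) with 1 array left out. The causes were not tested. Differences between genotypes that were near 0 changed sign at P6: that of Csrp3 ran from -0.14 to 0.49 and that of Fhl1 from -0.01 to 0.09 with 1 array left out. With the replicate block, chosen for shared numbers only, Csrp3 between P6 and P23 in DN-CLIM skin (1.07, adjusted p = 0.08), Pdlim4 between P6 and P23 in wild-type skin (-0.33, 0.071) and Fhl1 between P6 and P14 in DN-CLIM skin (-0.25, 0.055) did not pass. The block raised the count of member probe sets called in wild-type skin to 3, against 2, between P6 and P14 and to 9, against 8, between P14 and P23, and it changed no other call. The number of arrays and, for dim probe sets such as that of Zyx, the low signal limit what can be read.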

Other observations

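Within groups, the brighter Pdlim1 probe set and Casp14, a protease of cornifying keratinocytes, deviated together. With the group means removed, r at the brighter Pdlim1 probe set was 0.91 over the 22 arrays, the highest for any tested gene, where the highest value for Pdlim4 was 0.80. At that probe set DN-CLIM P6 replicate 5 had the lowest Pdlim1 of its group (9.51) and wild-type P14 replicate 3 of its own (9.20). The dimmer Pdlim1 probe set was at its group median in the first array (7.90) and lowest of its group in the second (8.42). Its r with Casp14 was not computed. This likeness was noticed among many genes and carries no test.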
